A study of Mus musculus with 2 samples.

Results

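The heat shock proteins and the DNAJ co-chaperones were compared between interscapular brown adipose tissue (iBAT) of wild-type mice and of mice lacking uncoupling protein 1 (Ucp1-KO). The set held 64 of the 27179 genes in the count tables. It took every gene symbol of the DNAJA, DNAJB and DNAJC families, the HSPA family (HSP70 with its HSP110 relatives), the HSPB family (small heat shock proteins), Hsph1, and the cytosolic HSP90 genes. Hspa5, Hspa9, Dnajb9 and Dnaja3, which act in the endoplasmic reticulum or in mitochondria, were left out. The choice was made by symbol, with earlier results of these data known.

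Both groups were untreated 20-day-old mice of the Bl6N (C57BL/6N) background, labelled male. They differed by genotype, wild-type or knockout of Ucp1, the gene of the protein that lets brown fat turn its proton gradient into heat. Each group was 1 RNA sequencing library made from the pooled tissue of 3 animals, so without replicates neither a p-value nor a standard deviation can be given. Genotype, pool of animals and library cannot be told apart, and neither can fewer cells of a type and less RNA per cell. The study asked with these libraries whether the absence of UCP1 in young brown fat goes with a different expression of inflammatory genes.

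The wild-type library held 52950913 counts and the Ucp1-KO library 53216727. Throughout, of paired values the wild-type library comes first and the Ucp1-KO library second. Mitochondrially encoded transcripts took 22.4% and 36.7% of the counts. Ucp1 itself had 366473 and 37853 counts, so the Ucp1-KO library kept 12.7% of the wild-type level after scaling. Eif2s3y, Kdm5d, Uty and Ddx3y, which are Y-linked, had 0 counts in the library labelled wild-type and 491 to 3446 in the Ucp1-KO library, although both are labelled male. Xist, the transcript of the inactive X chromosome, had 32380 and 16478 counts. The sex make-up of the pools cannot be told apart from genotype. Brown adipocyte markers such as Cidea and Fabp4 were abundant in both libraries, with 12 of 12 listed genes detected. Of these 12, 10 were higher in the Ucp1-KO library after scaling, 4 of them at least 2-fold, and 2 were lower. Counts were scaled with size factors, and a difference is given as the log2 ratio of the Ucp1-KO over the wild-type normalised count, followed by its exact 95% counting interval. The size rule was a 2-fold difference, a log2 ratio of 1 or more, or of -1 or less. A mean normalised count of at least 10 was needed for a gene to be examined, which 59 of the 64 members and 15212 of all genes reached.

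Heat shock proteins are molecular chaperones that keep other proteins folded. HSP70 binds unfolded stretches in a cycle driven by ATP. DNAJ proteins (HSP40) deliver clients to HSP70 and start its ATP hydrolysis, and HSP110 proteins let it release nucleotide. HSP90 takes over clients such as kinases and steroid receptors, while small heat shock proteins hold aggregation-prone proteins without ATP and are abundant in striated muscle. Many of these genes are induced by heat shock factor 1 (HSF1), which binds inverted repeats of the unit GAA, called heat shock elements, near the transcription start.

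Letters of the heat shock element occur near the start of several genes that this comparison turns on. The upstream sequences below are those of the inducible HSP70 pair and Dnajb4, which were higher in the Ucp1-KO library, and of Hsph1 and Hspb1, which were lower. Each gives the 250 bases before a RefSeq transcript start (GRCm38.p6, an earlier build than that of the counts), 5′ to 3′ on the gene's own strand. Capitals mark a pair of inverted units, GAANNTTC or TTCNNGAA.
Hspa1a (chr17:34972157-34972406, minus strand): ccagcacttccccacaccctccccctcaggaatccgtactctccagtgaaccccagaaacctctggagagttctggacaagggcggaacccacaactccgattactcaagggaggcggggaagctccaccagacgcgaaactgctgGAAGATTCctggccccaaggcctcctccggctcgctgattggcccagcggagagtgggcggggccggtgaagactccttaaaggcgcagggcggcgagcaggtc
Hspa1b (chr17:34959239-34959488, minus strand): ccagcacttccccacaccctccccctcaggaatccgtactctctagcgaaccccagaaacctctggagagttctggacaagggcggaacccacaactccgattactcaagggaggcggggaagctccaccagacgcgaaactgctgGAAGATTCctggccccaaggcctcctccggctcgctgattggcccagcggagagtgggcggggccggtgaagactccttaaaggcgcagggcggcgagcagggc
Dnajb4 (chr3:152193846-152194095, minus strand): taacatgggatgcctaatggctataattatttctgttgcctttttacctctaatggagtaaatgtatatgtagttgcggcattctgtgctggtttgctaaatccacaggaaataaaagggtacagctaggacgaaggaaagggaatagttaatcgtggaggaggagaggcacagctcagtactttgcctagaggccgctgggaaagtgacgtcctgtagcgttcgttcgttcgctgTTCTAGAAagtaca
Hsph1 (chr5:149636316-149636565, minus strand): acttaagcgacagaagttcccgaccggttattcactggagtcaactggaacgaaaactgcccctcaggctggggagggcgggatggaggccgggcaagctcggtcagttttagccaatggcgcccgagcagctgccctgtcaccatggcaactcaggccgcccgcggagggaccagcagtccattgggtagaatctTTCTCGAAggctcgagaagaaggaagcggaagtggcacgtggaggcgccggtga
Hspb1 (chr5:135887669-135887918, plus strand): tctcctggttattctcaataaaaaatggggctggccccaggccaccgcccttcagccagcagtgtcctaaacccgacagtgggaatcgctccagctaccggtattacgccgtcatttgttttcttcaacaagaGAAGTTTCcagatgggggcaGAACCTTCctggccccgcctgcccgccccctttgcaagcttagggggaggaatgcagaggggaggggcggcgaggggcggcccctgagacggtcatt
Hspa1a and Hspa1b differed at 3 of these 250 bases and carried the same pair of units at the same distance from the start, with its first base at -104. From the starts shown, a pair lay at -14 in Dnajb4 and -54 in Hsph1. A second RefSeq start of Dnajb4 had no pair in its window, and from another Hsph1 start the same pair lay at -33. Hspb1 had one at -117 and another at -97. A run of 3 units (GAANNTTCNNGAA, or TTCNNGAANNTTC on the other strand) was searched over the window from 250 bases before to 50 bases after each start. It was found in 2 of the 51 members with a RefSeq entry, as TTCTGGAAAGTTC at position 16 from the Hsph1 start shown (37 from the other) and as GAATCTTCCGGAA at -46 from 1 of the Dnajb6 starts (-127 from another), against 179 of all 27025 genes (0.662%). Pairs of units, counted on both strands with overlaps and including those inside runs of 3, were in 14 of 51 members (27.5%) and in 17.0% of all genes. They were in 7 of the 9 matched genes of a list of heat-inducible cytosolic members. A match of letters is a description and was not tested as a binding site. Members without an entry were Dnajc2, Dnajc5, Dnajc5b, Dnajc11, Dnajc12, Dnajc18, Dnajc22, Dnajc30, Hsp90aa1, Hsp90ab1, Hspa8, Hspa13 and Hspb2.

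Across the 59 examined members, about as many were higher as lower. The log2 ratio was above 0 in 29 and below 0 in 30, with a median of -0.02 against -0.0016 over all genes examined. The quartiles of the members were -0.37 and 0.31, close to the -0.39 and 0.35 of all genes. Of the members, 41 lay within 0.5 of 0. The counting interval lay above 0 in 22 members (37.3%, beside 31.5% of all genes examined) and below 0 in 23 (39.0%, beside 30.5%). Of the counts outside the mitochondrial genome, the members held 0.732% (0.728% to 0.736%) and 0.731% (0.727% to 0.735%), and of all counts 0.568% and 0.463%. The set as a whole thus took nearly the same share of the nuclear-encoded counts, while single members differed.

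**Figure D1:**
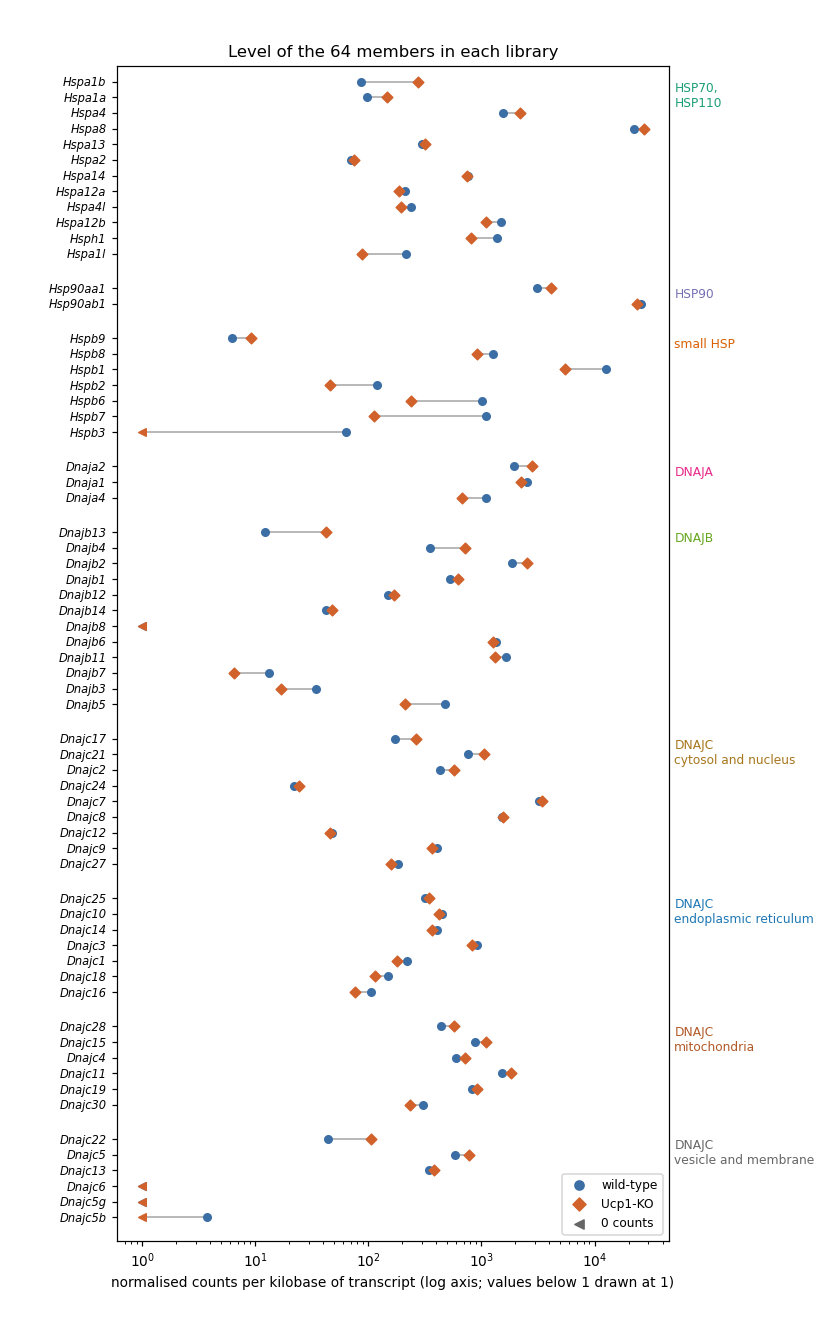
Normalised counts per kilobase of transcript (log axis) for the 64 members by role group, with wild-type as blue circles and Ucp1-KO as orange diamonds, with a triangle for 0 counts. Hsp90ab1 and Hspa8 stand highest in both libraries, and the longest lines join the small heat shock proteins Hspb3 and Hspb7.

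Past the size rule, 4 members (6.78%) were higher in the Ucp1-KO library, beside 7.42% of all genes examined, and 8 (13.6%) were lower, beside 9.55%. The higher ones were Hspa1b, Dnajb4, Dnajc22 and Dnajb13. The lower ones were Hspb1, Hspb2, Hspb3, Hspb6, Hspb7, Hspa1l, Dnajb5 and Dnajb3. The share of higher members was near that of all genes, and 5 of the 8 lower members came from 1 family of 7 genes. For Dnajb3 the interval held 0. With total-count scaling, Dnajb4 (0.72) and Dnajc22 (0.95) fell short of the rule, while Dnaja4 (-1.01), Hsph1 (-1.06) and Dnajb7 (-1.28) passed it. Nearest to the rule on the inside were Dnajb3 (-1.002) and Dnajb4 (1.03), and nearest outside were Dnajb7 (-0.98) and Hsph1 (-0.75).

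**Figure D2:**
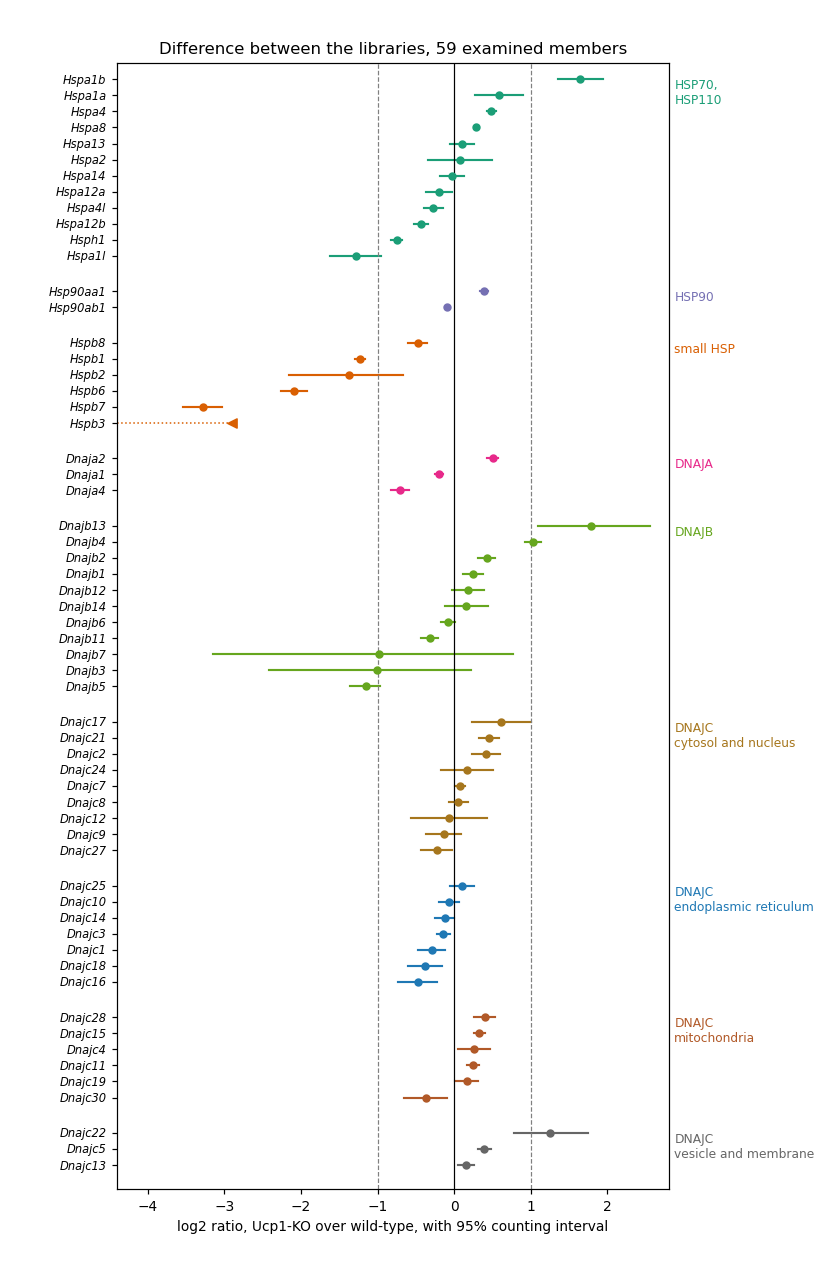
Log2 ratio of Ucp1-KO over wild-type for the 59 examined members by role group, with exact 95% counting intervals (lines) and the 2-fold size rule (dashed). The arrow at Hspb3 marks a bound because the Ucp1-KO library had 0 counts. All 6 small heat shock proteins lie to the left of 0, while every other group with more than 3 genes has members on both sides.

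The small heat shock proteins were the role group with the median farthest from 0. All 6 examined genes were lower in Ucp1-KO tissue, the median log2 ratio was -1.73 (the same with Hspb3 at its bound given below), and the summed counts were 22880 and 7203. They made up 7.61% and 2.92% of the members' counts.

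Hspb7, known as the cardiovascular heat shock protein (chr4:141148090-141152625, plus strand, GRCm39), had 3372 and 283 counts (-3.27, -3.53 to -3.03). Hspb6, also called Hsp20, had 3406 and 651 counts (-2.09, -2.26 to -1.92). Per kilobase of transcript, Hspb7 was slightly above Hspb6 in the wild-type library (1096 beside 1009 normalised counts) and below it in the Ucp1-KO library (113 beside 237). Hspb3 (chr13:113799432-113800212, minus strand), which forms a complex with Hspb2 in muscle, had 55 and 0 counts. With a bound of 3 read pairs, or 6 counts, set in place of its 0 counts, Hspb3 was 7.45-fold lower. Its counting interval, which also covers the error of the wild-type count, had its upper end at a log2 ratio of -2.50.

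Hspb2, the myotonic dystrophy kinase binding protein, had 138 and 43 counts (-1.37, -2.15 to -0.67). Its transcript overlaps that of the neighbouring alpha-crystallin gene Cryab on the opposite strand over 55.5% of its length, so its counts are uncertain. Hspb1, the mouse Hsp25 that binds actin filaments and is strongly heat-inducible, was by far the most abundant of the family, with 12927 and 4483 counts (-1.23, -1.30 to -1.16). By normalised count per kilobase it ranked 3 among the members in both libraries. Hspb1 shares 52.5% of its 150-base stretches with the copy Hsp25-ps1, so reads could be split between them. Hspb8, which works with Bag3 in the removal of damaged muscle proteins, had 2977 and 1737 counts and the smallest difference of the family (-0.48, -0.60 to -0.36).

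Since shares within a family do not depend on scaling, they show the unequal differences directly. Hspb7 made up 14.7% (14.1% to 15.4%) and 3.93% (3.32% to 4.62%) of the family's counts. Hspb8 made up 13.0% (12.4% to 13.6%) and 24.1% (22.7% to 25.5%), and Hspb1 56.5% and 62.2%. The shares here and in the families below were computed after their values had been seen. Hspb9, with 5 and 6 counts, was below the filter, and its transcript lies wholly within that of Rab5c on the opposite strand.

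Markers of striated muscle were also lower in the Ucp1-KO library. All 23 skeletal muscle markers were lower, 21 of them at least 2-fold, around a median of -2.39, and their summed counts were 390201 and 52615 (0.737% and 0.0989% of all counts). All 7 slow and cardiac muscle markers were lower, with a median of -2.72 and summed counts of 23627 and 2772. None of the 30 was at 0 in either library, and Acta1, skeletal actin, had 76457 and 5916 counts. Cryab, a small heat shock protein by structure that the symbol rule did not take, had 6498 and 854 counts (-2.63, -2.78 to -2.48), and Cryaa had 0 in both. The part of muscle tissue in the small heat shock protein values was not tested.

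**Figure D3:**
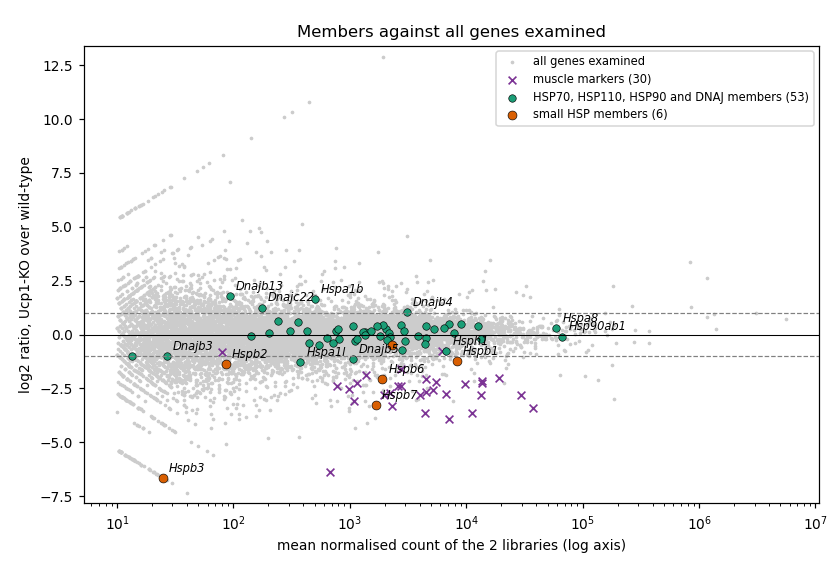
Log2 ratio of Ucp1-KO over wild-type against the mean normalised count (log axis) for all 15212 genes examined (grey), the 53 other members (green), the 6 small heat shock proteins (orange) and 30 muscle markers (purple crosses). Genes at 0 in a library are drawn with the pseudocount of 0.5. The small heat shock proteins and the muscle markers all lie below 0, and most other members lie within the grey band around 0. Hspb8 (-0.48), Hspb1 (-1.23), Hspb2 (-1.37) and Hspb6 (-2.09) lie nearer 0 than the muscle marker medians of -2.39 and -2.72. Hspb7 and Hspb3 lie farther from 0 than these medians.

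The inducible HSP70 genes were both higher in Ucp1-KO, and unequally so. The inducible genes Hspa1a and Hspa1b encode nearly the same protein and lie 9951 bases apart on chromosome 17 (chr17:35188166-35191132 and chr17:35175412-35178214, both minus strand, GRCm39). Hspa1b had 270 and 688 counts (1.65, 1.36 to 1.95), the second highest ratio of the set. Hspa1a had 318 and 388 counts (0.59, 0.28 to 0.90). Hspa1b was thus the lower of the pair by counts in wild-type and the higher in Ucp1-KO. Its share of the pair's counts was 45.9% (40.1% to 51.8%) and 63.9% (59.7% to 68.0%). The genes share 1074 stretches of 150 bases, 40.5% of those in Hspa1b, and how reads matching both were counted was not given in the sources used here.

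The testis-enriched Hspa1l starts 531 bases from Hspa1a on the other strand and went the opposite way, with 593 and 198 counts (-1.28, -1.63 to -0.95). Of its transcript, 71.5% overlaps an antisense transcript, Gm10501. Of 8 male germ cell markers, Tnp1, Tnp2 and Prm2 had 0 counts in both libraries, and the list summed to 889 and 827 counts, nearly all of them Sycp3 (857 and 805). Hspa2, the other spermatogenic HSP70, had 217 and 186 counts (0.08, -0.34 to 0.49), a difference within counting error.

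Hspa8, the constitutive HSC70 that performs most HSP70 work in unstressed cells, had 59144 and 58774 counts. Normalised, it stood at 53310 and 65206 (0.29, 0.27 to 0.31), and scaling by total counts gave -0.02, so its direction rests on the scaling. Of its 150-base stretches, 55.4% occur in another transcript, mostly Gm15459, so its counts are uncertain. Hspa8 outnumbered the inducible pair in both libraries, at 99.02% and 98.2% of the counts of all 3 genes. The inducible pair was thus a small part of these HSP70 transcripts in the Ucp1-KO library too. Hspa12b, a distant HSP70 relative enriched in endothelium, had 5659 and 3402 counts (-0.43, -0.52 to -0.35). Its transcript overlaps Adissp on the opposite strand over 54.5% of its length. Of 12 endothelial markers, 11 were also lower, with a median of -0.81 and summed counts of 152952 and 77528, and their part in the Hspa12b value was not tested. Hspa13, Hspa14 and Hspa12a were between -0.20 and 0.10.

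The HSP110 genes, nucleotide exchange factors of HSP70, differed in opposite directions. Hsph1 (chr5:149537636-149560156, minus strand), the heat-inducible one, had 9353 and 4513 counts (-0.75, -0.82 to -0.68). Hspa4, the constitutive one, had 8397 and 9542 (0.48, 0.42 to 0.54), and Hspa4l had 2521 and 1695 (-0.27, -0.40 to -0.15). Of the group's counts, Hsph1 held 46.1% (45.2% to 47.1%) and 28.7% (27.7% to 29.7%), and Hspa4 41.4% and 60.6%. Per kilobase of transcript, Hspa4 was the higher in both libraries, at 1556 and 2176 normalised counts beside 1365 and 810 for Hsph1. The directions of Hsph1 and Hspa4 were the same under each of the scalings tried.

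The HSP90 pair differed less. Hsp90ab1, the constitutive form and the member with the highest count in wild-type, had 76716 and 58311 counts (-0.10, -0.12 to -0.07). Hsp90aa1, the inducible form, had 12232 and 13039 (0.39, 0.34 to 0.44). The inducible form made up 13.8% and 18.3% of the pair's counts. Per kilobase, Hsp90ab1 stood at 25582 and 23934 normalised counts and Hspa8 at 22268 and 27237, so these genes changed places at the top of the set. Of Hsp90aa1, 33.5% of the 150-base stretches occur in another transcript.

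**Figure D4:**
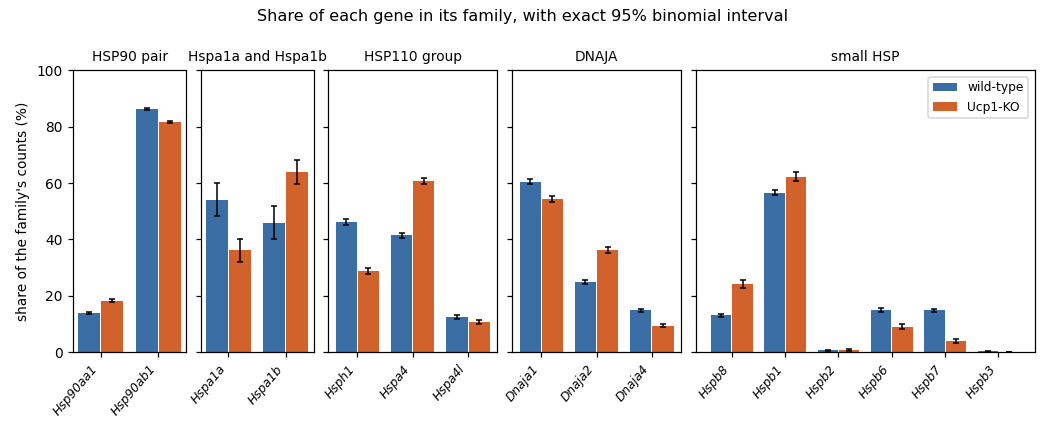
Share of each gene in the counts of its family (percent; wild-type blue, Ucp1-KO orange), with exact 95% binomial intervals that cover counting error only. Shares are of counts and are not corrected for transcript length. The share of Hspa4 in the HSP110 group is 41.4% in wild-type and 60.6% in Ucp1-KO, and the share of Hspb7 in the small heat shock proteins is 14.7% in wild-type and 3.93% in Ucp1-KO.

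Heat-inducible members did not move together. The list of 12 such cytosolic genes also held the constitutive Hspa8 (0.29) and Hsp90ab1 (-0.10). Of the 12, 6 were above and 6 below 0. Their median log2 ratio of 0.08 became -0.23 with total-count scaling, where the median of all genes was -0.31. Hspa1b and Dnajb4 were at least 2-fold higher and Hspb1 at least 2-fold lower. The genes whose upstream sequences are shown above, each with at least 1 pair of inverted units, were shown with their directions known. Their split between higher and lower is therefore not a result. Dnaja1 and Hspb8, the others of the list found with a pair, were at -0.20 and -0.48. Hsf1, the factor that drives the heat shock response, had 1234 and 1159 counts (0.21, 0.04 to 0.38), but was at -0.10 with total-count scaling. Hsf2 and its relative Hsf4 were at 0.17 and -0.51, with intervals that held 0. Of 7 heat shock factor genes, 5 were examined, and Hsf3 alone passed the size rule, from 7 and 14 counts with an interval that held 0 (1.24, -0.75 to 3.68). Hsf5 had 8 and 0 counts and Hsf2bp had 4 and 10, both below the filter. Immediate early genes, which respond to handling and to stress within minutes, were higher in 11 of the 15 examined cases of 16 listed and lower in 4. Of the 15, 6 were at least 2-fold higher, beside 7.42% of all genes examined. The median was 0.71 (0.40 with total-count scaling), and the summed counts were 16282 and 18666. The part of the immediate early genes in the Hspa1b value was not tested.

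The DNAJ co-chaperones were, as a family, near the other genes. Of the 43 genes, 39 were examined. Of these, 3 were at least 2-fold higher and 2 lower, beside 7.42% and 9.55% of all genes examined. The median log2 ratio was 0.11 (-0.20 with total-count scaling). The DNAJ genes held 32.6% and 34.5% of the members' counts. Within the family, the DNAJA class, general partners of HSP70, showed another change of composition.

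Dnaja1 had 15797 and 11183 counts (-0.20, -0.25 to -0.15), Dnaja2 6473 and 7446 (0.50, 0.43 to 0.57), and Dnaja4 3874 and 1929 (-0.71, -0.82 to -0.59). Of the class's counts, the heat-inducible Dnaja1 held 60.4% and 54.4%, and Dnaja2 24.8% and 36.2%. Per kilobase of transcript, Dnaja1 was above Dnaja2 in wild-type (2555 beside 1960 normalised counts) and below it in Ucp1-KO (2226 beside 2775). The canonical Dnaja1 transcript overlaps Smu1 over 90.2% of its length and Dnaja4 overlaps Skic8 over 50.1%, each on the opposite strand.

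In the DNAJB class, which includes the heat-inducible partners of HSP70, the largest difference by counts was in Dnajb4 (chr3:151884148-151916665, minus strand), with 2262 and 3749 counts (1.03, 0.92 to 1.14). Its close relative Dnajb1, the classical HSP40, had 2067 and 1993 counts (0.25, 0.12 to 0.37), a difference whose direction reversed with total-count scaling. Dnajb5, another gene of this type, had 1631 and 594 counts (-1.16, -1.35 to -0.96). Per kilobase of transcript, Dnajb4, Dnajb1 and Dnajb5 lay between 352 and 527 normalised counts in wild-type and between 213 and 718 in Ucp1-KO, where Dnajb4 was the highest. Dnajb2 was at 0.42, and Dnajb6, a suppressor of protein aggregation, was at -0.08 with an interval that held 0.

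Dnajb13, a protein of motile cilia and sperm tails, had 46 and 130 counts (1.79, 1.09 to 2.55), the highest ratio in the set from a low level. It overlaps Ucp2 on the opposite strand over 32.4% of its transcript, and Ucp2 had 6918 and 9684 counts (0.78, 0.72 to 0.85). Whether reads of Ucp2 were counted for Dnajb13 was not tested. Testis-associated Dnajb3 had 40 and 16 counts (-1.002, -2.41 to 0.22) and Dnajb7 20 and 8 (-0.98, -3.15 to 0.77), so neither difference exceeded counting error, and Dnajb8 had 0 in both libraries.

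Among the DNAJC genes, whose J domain is joined to many other domains, the ratios are given by place of action. Of the 6 mitochondrial members, 5 were higher in the Ucp1-KO library (median 0.25), although with total-count scaling the median was -0.06 and 2 were higher. Dnajc28 had 1627 and 1742 counts (0.40, 0.26 to 0.54) and Dnajc15, an inner membrane protein that restrains respiration, 6335 and 6449 (0.33, 0.25 to 0.40). Dnajc30, which binds the ATP synthase, was the exception with 561 and 352 counts (-0.37, -0.65 to -0.10).

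Of the 7 DNAJC members of the endoplasmic reticulum, 6 were lower (median -0.14), all by less than 2-fold. The largest were Dnajc16 with 701 and 410 counts (-0.47, -0.73 to -0.22), Dnajc18 with 893 and 559 (-0.38, -0.60 to -0.16) and Dnajc1 with 1354 and 896 (-0.30, -0.47 to -0.12). The endoplasmic reticulum chaperones outside the set did not share this sign throughout, since Hspa5 (BiP) was at 0.64 and Dnajb9 at 0.72, Hsp90b1 at -0.01 and the collagen chaperone Serpinh1 at -0.72.

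The 9 cytosolic and nuclear DNAJC members lay between -0.23 and 0.61, with none past the size rule. The highest were Dnajc17, a splicing-related protein, with 211 and 262 counts (0.61, 0.23 to 1.00), Dnajc21, a factor of the large ribosomal subunit, with 1822 and 2031 (0.46, 0.33 to 0.59), and the ribosome-bound Dnajc2 with 1013 and 1097 (0.41, 0.24 to 0.59). Dnajc7, a partner of both HSP70 and HSP90 and the most abundant DNAJ transcript per kilobase, had 8406 and 7206 counts (0.08, 0.01 to 0.14, and -0.23 with total-count scaling).

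In the group of vesicle and membrane members, all 3 examined genes were higher, but Dnajc13 was at -0.16 with total-count scaling. Dnajc22 had 115 and 223 counts (1.25, 0.78 to 1.74), Dnajc5, the cysteine string protein of secretory vesicles, 4304 and 4591 (0.39, 0.31 to 0.48), and the endosomal Dnajc13 3074 and 2772 (0.15, 0.04 to 0.26). The others were at or near 0, with 4 and 0 counts for Dnajc5b and 0 in both libraries for Dnajc5g and for Dnajc6, the neuronal auxilin.

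Partners of these chaperones outside the set were counted in the same way. Of 51 such genes, 48 were examined. Of these, 2 were at least 2-fold higher and 2 lower, beside 7.42% and 9.55% of all genes examined. The median was 0.15 (-0.16 with total-count scaling). Of the 11 HSP70 exchange factors and regulators, 1 passed the size rule, Bag2, with 342 and 640 counts (1.202, 0.93 to 1.48). With total-count scaling Bag2 was at 0.896 and fell short of the rule. Bag3, the partner of Hspb8, had 3595 and 4720 (0.69, 0.60 to 0.78) and was thus higher where Hspb8 was lower. Hikeshi, which carries HSP70 into the nucleus, was at -0.45.

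Of the 17 HSP90 co-chaperones, 10 were lower and 7 higher, around a median of -0.25 (-0.56 with total-count scaling). Itgb1bp2, known as melusin and found in striated muscle, had 986 and 114 counts (-2.81, -3.23 to -2.42). The muscle myosin chaperone Unc45b was next with 4013 and 2056 (-0.67, -0.78 to -0.56), followed by Fkbp4, a partner in steroid receptor complexes, with 11047 and 6104 (-0.56, -0.62 to -0.49). Of the 14 chaperonin and prefoldin subunits, which fold actin and tubulin, 12 were above 0 with a median of 0.20 (-0.10 with total-count scaling), and none passed the size rule. The highest were Pfdn2 at 0.51, Pfdn4 at 0.49 and Cct4 at 0.46.

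**Figure D5:**
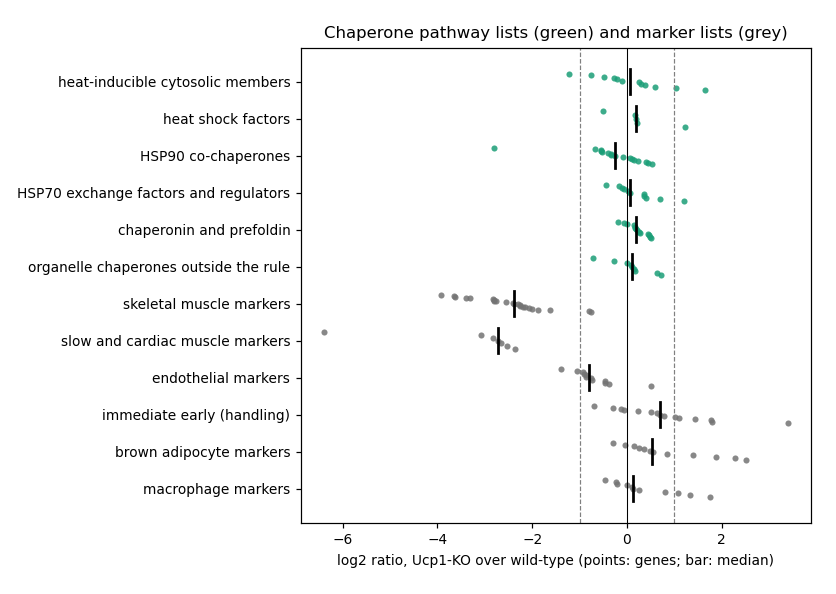
Log2 ratio of Ucp1-KO over wild-type for the examined genes of chaperone lists (green) and marker lists (grey), 1 point a gene, with the median as a bar and the size rule dashed. The alpha-crystallins (Cryab at -2.63) and the male germ cell and Schwann cell and neuron markers are not plotted. The medians of the chaperone lists plotted lie between -0.25 and 0.20, and those of the muscle marker lists at -2.39 and -2.72.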

How the data were processed

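RNA of interscapular brown adipose tissue was sequenced in 1 wild-type and 1 Ucp1-KO library of 3 pooled animals each. Both were poly-A enriched and directional per the labels, and the submitters' processing notes name Trim Galore, HISAT2 and the build mm39. The authors deposited raw counts per gene from featureCounts. Which annotation was used, and how strand and multiply matching reads were handled, is not given in the sources used here, so overlapping genes and near-identical copies are uncertain.

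Scaling used the median-of-ratios size factors of DESeq2 1.42.0 in R 4.3.3, 1.11 (wild-type) and 0.901 (Ucp1-KO). Log2 ratios used a pseudocount of 0.5. Low counts were mostly even (70.7% and 73.4% of genes with 1 to 10 counts), so the exact 95% intervals (Clopper-Pearson) used read pairs, counts divided by 2. Intervals cover counting error only, not differences between animals, because each group was 1 library of pooled tissue. No molecular identifiers mark independent molecules, so the intervals may be too narrow even for counting error. Levels between genes are per kilobase of the GENCODE canonical transcript, and positions are those of GRCm39. Alternatives tried were TMM factors (edgeR 4.0.16), total counts with and without mitochondrially encoded genes, other filters, pseudocounts and size rules. Scripts were tested on simulated data. Named members were those past the size rule, the 12 genes of the heat-inducible list and the most abundant 5. Named too were the 3 largest ratios of each role group and those nearest the rule. Hspa2, Hspa4, Hspa12a, Hspa12b, Hspa13, Hspa14, Dnajb2 and Dnajb6 were named beside them after their values were seen. The members and lists were chosen with earlier results of these data known.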

Additional observations from a re-analysis of the deposited data

How the results depend on the processing

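With total counts, which include the larger mitochondrial share of the Ucp1-KO library, the median of all genes was -0.31, that of the members -0.33, of the DNAJ members -0.20 and of the heat-inducible members -0.23. Then 2 members were at least 2-fold higher and 11 lower, and 14 changed sign. Members above 0 went from 29 to 15 of 59, beside 7592 to 4189 of all 15212 genes examined. Of those named in the text, Dnajb1 became -0.0598, Dnajc7 -0.23, Dnajc13 -0.16, Hspa2 -0.23, Hspa13 -0.20 and Hspa8 -0.0163. TMM factors and totals without mitochondrially encoded genes changed no sign. At a log2 ratio of 1.5, 2 members were higher and 3 lower. With the interval itself beyond 2-fold, 2 were higher and 4 lower on read pairs, and 2 were higher and 6 lower on deposited counts. A minimum mean of 50 left 4 higher and 6 lower. No share of all genes is given for the size-rule counts under these settings, so they are not read as particular to the members. The small heat shock protein median was -1.37 without a filter, with a minimum mean of 50, and from sums. No paired analysis was possible because only 1 library was made for each genotype, and none could be left out. Depth limits Dnajb3 and Dnajb7, whose intervals held 0.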
